A study of Mus musculus with 6 samples.

Results

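The genes described here handle ATP, NAD and adenosine outside the cell, and they were followed in regulatory T cells (Treg cells), a CD4 lineage that restrains immune responses, from mice with a targeted gene for the chromatin remodelling subunit BAF60b. The members are Entpd1, Nt5e, Adora2a, Ada, Dpp4, P2rx7, P2rx4 and Cd38, 8 genes taken by symbol from a read-count table of 54232 genes. The altered animals carried a conventional BAF60b knockout (KO), so the gene was targeted in every cell and not in Treg cells alone, and the controls were wild-type (WT) mice. From each genotype, 3 libraries were made from total RNA of GFP+ Treg cells of the spleen. The allele that carries GFP, the targeted exons, the strain, the age and the sex of the mice are not stated by the labels. Neither is whether each library came from a mouse of its own. The p-values therefore set the genotype difference against the spread between these libraries, which may not be that between mice.

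Cells release ATP when they are stressed, dying or activated, and extracellular ATP acts as an alarm signal through P2X and P2Y receptors. Ectoenzymes on the cell surface then strip ATP to AMP and AMP to adenosine, which quiets T cells through the receptor encoded by Adora2a and cyclic AMP. Treg cells are known for carrying this enzyme pair, CD39 and CD73, and for being sensitive to death through the ATP receptor P2X7, which extracellular NAD can also trigger in mouse T cells.

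Library totals lay between 18167053 and 22502804 reads. Values are library-scaled read counts (CPM), shown per library or as a mean ± SD over the 3 libraries of a genotype (n = 3), and log2 fold changes are KO minus WT from edgeR after TMM scaling, with p-values adjusted over all 13602 genes tested. The targeted gene Smarcd2, which encodes BAF60b, had 58.4 ± 0.92 CPM in KO and 198 ± 8.08 CPM in WT, so it was lower in KO (log2 fold change -1.77, adjusted p = 6.78e-08) and reads of it remained. Foxp3, the lineage factor of Treg cells, lay between 583 and 612 CPM in KO and between 542 and 562 CPM in WT (adjusted p = 0.253), while Il2ra (adjusted p = 0.834) and Ctla4 (adjusted p = 0.468) did not pass either. Of the 9 Treg markers listed, 1 was called, Ikzf2, which rose to 891 ± 70.5 CPM in KO, against 662 ± 43.4 CPM in WT (log2 fold change 0.42, adjusted p = 0.00527). Summed over 10 macrophage and monocyte markers, the libraries held 38.7 to 259.8 CPM in KO and 74.3 to 89.8 CPM in WT, with KO 2 highest and KO 3 lowest. The 8 B cell markers summed to 8.75 to 11.9 CPM in KO and 14.7 to 17.8 CPM in WT, and 1 of them, Cd79b, fell. Plasma cell markers summed to 105.1 to 127.8 CPM in KO and 115.4 to 121.8 CPM in WT. Most of that sum was Xbp1 (104 CPM in KO and 114 CPM in WT), and of this list Sdc1 rose, on few reads (1.39 ± 0.708 CPM in KO and 0.184 ± 0.0472 CPM in WT, log2 fold change 2.84, adjusted p = 0.0123). Dendritic cell markers summed to 66.2 to 80.4 CPM in KO and 69.2 to 93.7 CPM in WT. Nearly all of it was Bst2 (68.8 CPM in KO and 78.4 CPM in WT). Zbtb46, the other tested gene of that list, was higher in every KO library but did not pass (log2 fold change 0.77, adjusted p = 0.0601). NK cell markers summed to 5.94 to 7.25 CPM in KO and 4.87 to 6.56 CPM in WT. Klrb1c was lower in KO (log2 fold change -1.14, adjusted p = 0.0353). Eomes went the other way, higher in every KO library, but did not pass (log2 fold change 0.71, adjusted p = 0.0560). CD8 T cell markers summed to 12.96 to 13.3 CPM in KO and 11.3 to 14.9 CPM in WT. Neutrophil markers summed to 0.844 to 1.09 CPM in KO and 0.190 to 0.385 CPM in WT, and erythroid and platelet markers to 1.96 to 14.05 CPM in KO and 2.57 to 4.51 CPM in WT. None of these markers was at 0 in all 6 libraries. The 4 Y-linked genes had 0 reads in KO 2 and in WT 1, and Xist had 0 reads in KO 3. KO 1, WT 2 and WT 3 held reads of both kinds, with 301 CPM of Y-linked genes and 87.6 CPM of Xist in KO 1, 143 and 254 CPM in WT 2, and 242 and 128 CPM in WT 3. Y-linked genes are read in male cells and Xist in female cells, so these libraries held RNA of both sexes. The mix of sexes thus differed between libraries of the same genotype, and how it arose was not tested.

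Of the 8 members, 1 was called: P2rx7, a receptor for extracellular ATP, fell to 0.772 times the WT level. In bulk RNA, fewer cells that express the gene and less RNA per cell cannot be told apart. The enzyme pair that makes adenosine, its receptor and the genes of its removal did not pass, which covers Entpd1, Nt5e, Adora2a, Ada and Dpp4. Neither P2rx4 nor Cd38 passed. Among all 13602 genes tested 6.45% were called, 3.20% lower and 3.25% higher in KO, so 1 call in 8 members says little about them as a set. The KO and WT values of 2 members, P2rx7 and Adora2a, did not overlap, beside 25.4% of all genes tested. The median log2 fold change was -0.11 over the members and 0.00 over all genes, and 6 of the 8 were below 0. All 8 members passed the filter on low counts, with at least 138 reads in every library.

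**Figure D1:**
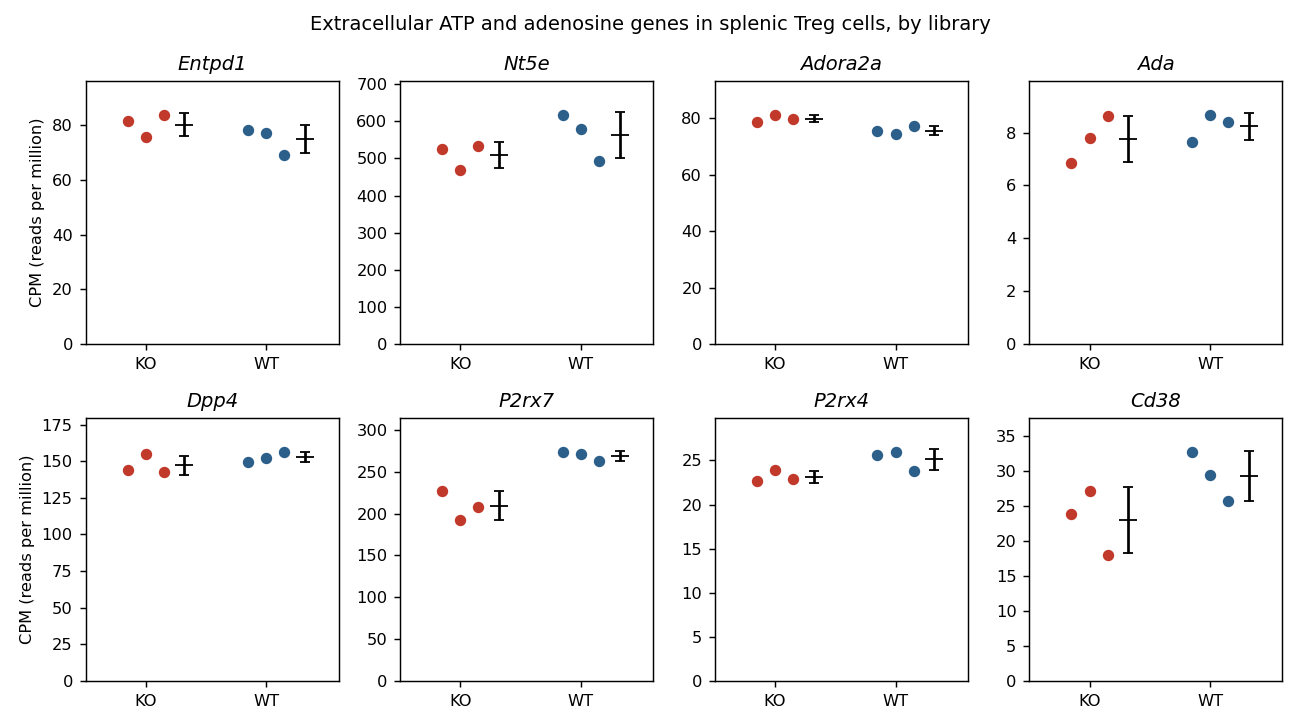
Level of each of the 8 genes in CPM (linear axis from 0) in the 3 KO libraries (red) and the 3 WT libraries (blue), ordered by replicate number from left to right within a genotype, with mean ± SD beside them in black. P2rx7 lies between 193 and 227 CPM in KO and between 263 and 273 CPM in WT, while the genotypes overlap for 6 of the other genes.

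Entpd1 encodes CD39, which removes phosphates from ATP and ADP to leave AMP. The deposited table places it on chromosome 19 of mm10 at 40612366 to 40741602, plus strand (ENSMUSG00000048120). It had 81.3, 75.5 and 83.5 CPM in KO 1, 2 and 3, against 78.3, 77.2 and 69.0 CPM in WT 1, 2 and 3. The genotypes overlapped, since KO 2 lay below WT 1 and WT 2. The log2 fold change was 0.09 (SE 0.06, 95% interval -0.05 to 0.23, adjusted p = 0.488).

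Nt5e encodes CD73, which turns AMP into adenosine and is the most abundant member. It lies on chromosome 9 at 88327197 to 88372092, plus strand (ENSMUSG00000032420). Its values were 524, 469 and 534 CPM in KO libraries, against 616, 579 and 494 CPM in WT libraries. WT 3 lay inside the range of the KO libraries, and the spread among WT libraries (SD 62.7 CPM) was larger than the difference of the means (509 CPM in KO and 563 CPM in WT). The log2 fold change of -0.15 did not pass (SE 0.08, 95% interval -0.34 to 0.03, adjusted p = 0.330). Neither interval shows that CD39 or CD73 transcripts were equal between the genotypes.

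Adora2a encodes the main adenosine receptor of T cells, through which adenosine raises cyclic AMP in these cells. It lies on chromosome 10 at 75316877 to 75334784, plus strand (ENSMUSG00000020178). It had 78.8, 81.1 and 79.9 CPM in KO, against 75.4, 74.3 and 77.3 CPM in WT. Every KO library lay above every WT library, but the gap was small. The log2 fold change was 0.07 (SE 0.05, 95% interval -0.04 to 0.17, adjusted p = 0.465). The other adenosine receptors were close to absent from the libraries in both genotypes: Adora2b had at most 2 reads in a library and Adora3 at most 3. Adora1 had 0 reads in all 6 libraries, where a count of 0 allows up to 3 counts, or 0.133 to 0.165 CPM per library. None of these 3 could be tested, and per kilobase of exon the highest value among them in any library was 0.0539 CPM, beside 26.1 CPM per kilobase in KO and 24.7 CPM per kilobase in WT for Adora2a.

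Ada encodes adenosine deaminase, which converts adenosine to inosine, and Dpp4 encodes CD26, a surface peptidase. In humans CD26 anchors adenosine deaminase to the T cell surface. Both genes lie on the minus strand of chromosome 2, Ada at 163726584 to 163750239 (ENSMUSG00000017697) and Dpp4 at 62330073 to 62412231 (ENSMUSG00000035000). Ada had 6.86, 7.80 and 8.62 CPM in KO libraries, against 7.65, 8.65 and 8.40 CPM in WT libraries. It rests on 138 to 194 reads per library, the fewest of any member, and did not pass (log2 fold change -0.10, SE 0.12, 95% interval -0.38 to 0.18, adjusted p = 0.725). Dpp4 had 144, 155 and 143 CPM in KO, against 149, 152 and 156 CPM in WT. KO 2 lay within the WT range and the other KO libraries below it, with a log2 fold change of -0.06 (SE 0.05, 95% interval -0.17 to 0.04, adjusted p = 0.516). Exons of Dpp4 share 232 bases with an antisense gene that had 24 reads over all libraries, against 18166 reads of Dpp4.

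P2rx7 encodes P2X7, an ATP-gated ion channel that needs high ATP and can open a large pore, shed surface proteins and kill the cell. It had 227, 193 and 208 CPM in KO 1, 2 and 3, against 273, 271 and 263 CPM in WT 1, 2 and 3. All 3 KO libraries lay below all 3 WT libraries, with KO 2 the lowest and the WT libraries close together (SD 5.63 CPM in WT and 17.3 CPM in KO). The log2 fold change was -0.37 (SE 0.07, 95% interval -0.52 to -0.23, adjusted p = 0.00983), so P2rx7 fell to 209 CPM in KO against 269 CPM in WT. The log2 fold change stayed between -0.45 and -0.31 when a library was left out, and the call was lost by a narrow margin without WT replicate 1 (adjusted p = 0.0517) or WT replicate 2 (adjusted p = 0.0505). KO 2, lowest in P2rx7, was also highest in macrophage markers. With the summed macrophage markers as a covariate in edgeR, added once the data had been seen, the log2 fold change was -0.36 (adjusted p = 0.00535). The cause of the difference was not tested. Without KO 2 the log2 fold change was -0.31 (adjusted p = 0.0149).

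P2rx4 encodes P2X4, an ATP-gated channel that responds to lower ATP, and it lies next to P2rx7. On chromosome 5 of mm10, P2rx7 (ENSMUSG00000029468) spans 122643911 to 122691432 and P2rx4 (ENSMUSG00000029470) spans 122707544 to 122729738, both on the plus strand, with 16111 bases between them. P2rx4 had 22.7, 23.9 and 22.8 CPM in KO, against 25.7, 26.0 and 23.8 CPM in WT. KO 2 lay just above WT 3, and the neighbour of P2rx7 did not pass (log2 fold change -0.13, SE 0.07, 95% interval -0.28 to 0.02, adjusted p = 0.337). The difference between the fold changes of the 2 neighbours was not tested. No other P2X gene had more than 7 reads in a library. P2rx5 reached 0.151 CPM per kilobase at most, and P2rx1, P2rx2, P2rx3 and P2rx6 stayed at or below 0.0534.

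The starts of these neighbours are shown because P2rx7 was the member that changed and has a pair of annotated starts, 6456 bases apart, which a gene count cannot separate. The 250 bases before each start are given from RefSeq (GRCm38.p6, plus strand, 5′ to 3′) at chr5:122643677-122643926 for the first start of P2rx7, chr5:122650133-122650382 for its second start and chr5:122707294-122707543 for P2rx4. The first window reaches 16 bases into the exon that GENCODE annotates. Capitals mark matches, on either strand, to AP-1 (TGANTCA), CRE (TGACGTCA) or the GC box (GGGCGG), and no match overlapped another.
P2rx7 first start: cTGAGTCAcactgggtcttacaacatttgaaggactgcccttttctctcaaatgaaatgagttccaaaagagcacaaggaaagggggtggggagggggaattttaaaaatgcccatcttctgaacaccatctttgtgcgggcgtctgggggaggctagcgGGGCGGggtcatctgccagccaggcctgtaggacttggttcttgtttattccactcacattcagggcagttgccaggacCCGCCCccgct
P2rx7 second start: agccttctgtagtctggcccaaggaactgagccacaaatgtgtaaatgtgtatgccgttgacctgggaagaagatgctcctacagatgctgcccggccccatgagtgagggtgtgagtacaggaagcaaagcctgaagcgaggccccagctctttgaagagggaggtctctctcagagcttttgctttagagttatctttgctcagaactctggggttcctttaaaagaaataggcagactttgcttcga
P2rx4 start: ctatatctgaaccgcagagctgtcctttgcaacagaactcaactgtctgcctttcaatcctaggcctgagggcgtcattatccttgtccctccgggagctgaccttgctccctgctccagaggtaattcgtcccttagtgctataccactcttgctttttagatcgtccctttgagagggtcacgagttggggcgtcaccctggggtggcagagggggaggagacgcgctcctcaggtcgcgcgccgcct
The first window of P2rx7 held 1 AP-1 match and 2 GC boxes, and the second window of P2rx7 and the window of P2rx4 held 0 matches to these 3 motifs. Among 32851 windows of the same length in the RefSeq table, 6.75% held AP-1, 1.55% CRE and 32.7% a GC box. A match describes letters and not bound protein. Of the 8 members, 7 had a window in that table, and Adora2a had none.

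Cd38 encodes an ectoenzyme that breaks down NAD and makes cyclic ADP-ribose, and so lowers the NAD that can act on the cell. It lies on chromosome 5 at 43868553 to 43912375, plus strand (ENSMUSG00000029084), far from P2rx7 and P2rx4. It had 23.9, 27.2 and 18.0 CPM in KO, against 32.8, 29.5 and 25.7 CPM in WT. KO 2 lay above WT 3, so the genotypes overlapped, and the log2 fold change of -0.36 did not pass (SE 0.14, 95% interval -0.67 to -0.05, unadjusted p = 0.0271, adjusted p = 0.178). Its estimate was close to that of P2rx7, but its SE was about as wide as that of Ada. B cells and macrophages express Cd38 too, and the summed B cell markers were lower in every KO library than in every WT library. The part of B cells in the result was not tested. Cd38 passed when the summed macrophage markers entered the fit as a covariate, a choice made once the data had been seen (log2 fold change -0.44, adjusted p = 0.0179). The estimate was smaller with the CPM of Y-linked genes as a covariate (-0.22, adjusted p = 0.181) and without KO replicate 3 (-0.21, adjusted p = 0.333).

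**Figure D2:**
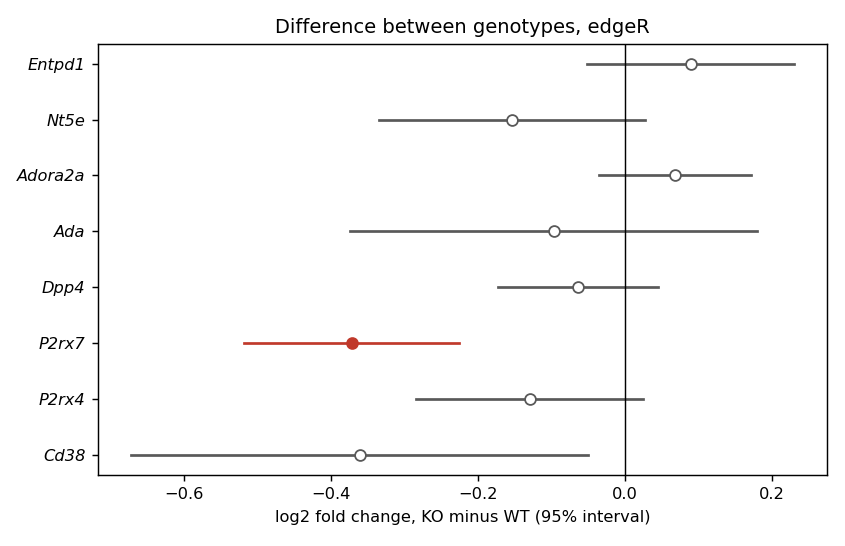
Log2 fold change of each gene, KO minus WT, with its 95% interval from edgeR. The interval of P2rx7 (red, filled, the called gene) runs from -0.52 to -0.23, that of Cd38 also stays below 0 although its adjusted p of 0.178 did not pass, and those of the other 6 genes include 0.

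Per kilobase of exon, the members kept the same order in all 6 libraries. Nt5e stood first with 59.2 ± 4.03 CPM per kilobase in KO and 65.4 ± 7.29 in WT, followed by P2rx7 with 35.0 ± 2.89 in KO and 45.0 ± 0.942 in WT. Adora2a (26.1 ± 0.363 in KO and 24.7 ± 0.5 in WT) and Dpp4 (23.3 ± 1.05 in KO and 24.1 ± 0.554 in WT) came next, and in WT these neighbours in the order did not differ beyond their spread. Entpd1 followed with 14.4 ± 0.745 in KO and 13.4 ± 0.914 in WT, so CD73 transcripts were several times as abundant per length as CD39 transcripts in each genotype. The order closed with Cd38 (5.92 ± 1.21 in KO and 7.53 ± 0.909 in WT), Ada (3.88 ± 0.441 in KO and 4.11 ± 0.260 in WT) and P2rx4 (3.29 ± 0.0962 in KO and 3.58 ± 0.170 in WT). Lengths are those of all annotated exons joined, so a gene that uses short isoforms is understated.

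The rest of the pathway was read from 7 lists of ectonucleotidases, NAD ectoenzymes, ATP release channels, other P2X, P2Y and adenosine receptors, and adenosine uptake and turnover. Of 66 listed genes 37 could be tested, 2 rose and 7 fell, which is 24.3% called beside 6.45% of all genes. The lists were chosen with earlier results of these data known, so this share cannot show an enrichment of the pathway. Their median log2 fold change was 0.00, the same as for all genes, with 20 above and 17 below 0. The share without overlap between genotypes was 13 of 37, beside 25.4% of all genes tested.

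Among 4 tested NAD ectoenzymes, 2 fell. Art2b encodes an ADP-ribosyltransferase of mouse T cells that uses extracellular NAD to modify and open P2X7, and Art2a-ps is its neighbouring copy on chromosome 7, annotated as a polymorphic pseudogene. Art2b had 223, 217 and 180 CPM in KO, against 313, 295 and 228 CPM in WT, with WT 3 only just above KO 1 (log2 fold change -0.44, SE 0.11, adjusted p = 0.0459). Art2a-ps had 13.4, 14.5 and 10.1 CPM in KO, against 30.0, 29.1 and 20.8 CPM in WT (log2 fold change -1.09, SE 0.16, adjusted p = 0.00402). The copies are similar in sequence and the counting of reads that fit both is not given, so the split between them is uncertain. The call of Art2a-ps held in all 16 alternatives, while that of Art2b was lost in 9 of 16, among them DESeq2 (adjusted p = 0.0668), limma-voom (adjusted p = 0.0515) and the fit without WT replicate 1 (adjusted p = 0.180).

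Among 5 tested genes of ATP release, 1 rose and 1 fell, and 4 of the 5 had a log2 fold change above 0. Panx1 encodes pannexin 1, a channel through which T cells release ATP and which can open together with P2X7. It had 144, 148 and 146 CPM in KO, against 111, 111 and 112 CPM in WT. The 3 libraries of a genotype nearly coincided and the genotypes were far apart (log2 fold change 0.38, SE 0.04, adjusted p = 0.00102), a call that held in all 16 alternatives. Gja1 encodes connexin 43, which also forms ATP-permeable hemichannels, and had 10, 2 and 1 reads in KO 1, 2 and 3, against 43, 45 and 30 reads in WT 1, 2 and 3. It was low in both genotypes and lower in every KO library, with 0.105 times the WT level over the summed reads (95% Clopper-Pearson interval 0.0545 to 0.187, counting error only) and an adjusted p of 0.00898 in edgeR, which became 0.0525 without WT replicate 1. Of the 13 KO reads 10 were in KO 1, and without that library the log2 fold change was -4.70, beside -3.21 with all libraries. The other 3 tested genes did not pass. These were the volume-regulated channel gene Lrrc8a (log2 fold change 0.42, adjusted p = 0.151) and Calhm2 (0.26, adjusted p = 0.114), both higher in every KO library than in every WT library, and the vesicular nucleotide transporter gene Slc17a9 (0.05, adjusted p = 0.720). Lrrc8a passed in edgeR without a filter on low counts (adjusted p = 0.0278) and with the macrophage covariate (adjusted p = 0.0436).

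Among 19 tested genes of adenosine uptake and turnover, 1 rose and 2 fell. Adk encodes adenosine kinase, which returns adenosine to AMP inside the cell and is a main route of its removal. It had 29.6, 30.6 and 26.8 CPM in KO, against 48.5, 47.2 and 49.0 CPM in WT. The genotypes were well separated, Adk fell (log2 fold change -0.75, SE 0.07, adjusted p = 0.000324), and the call held in all 16 alternatives. Slc29a1 encodes the equilibrative transporter ENT1, which carries adenosine across the membrane, and had 40.8, 36.8 and 45.9 CPM in KO, against 55.0, 54.1 and 47.8 CPM in WT (log2 fold change -0.35, SE 0.09, adjusted p = 0.0405). KO 3 came close to WT 3, and the call was lost in 7 of 16 alternatives, with adjusted p = 0.165 without WT replicate 1. The concentrative transporter gene Slc28a2, at 144 ± 16.7 CPM in KO and 142 ± 10.9 CPM in WT, did not pass (log2 fold change 0.01, adjusted p = 0.957). Xdh was lower in every KO library than in every WT library but did not pass (log2 fold change -0.32, adjusted p = 0.100). Some alternatives did call Xdh, among them DESeq2 (adjusted p = 0.0363) and edgeR with the covariate of Y-linked CPM (adjusted p = 0.006). Ampd1, an AMP deaminase best known from muscle, rose to 8.75 ± 0.608 CPM in KO, against 5.90 ± 0.075 CPM in WT (log2 fold change 0.56, adjusted p = 0.0189), a call lost without KO replicate 2 or any 1 of the WT libraries (highest adjusted p = 0.0796).

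Of 7 tested ectonucleotidases, 2 fell. Acpp encodes an acid phosphatase whose membrane form can make adenosine from AMP in mouse sensory neurons. It had 6.61, 4.34 and 5.02 CPM in KO, against 8.92, 11.8 and 9.79 CPM in WT (log2 fold change -0.94, SE 0.18, adjusted p = 0.0124), and the call was lost only without WT replicate 2 among the 16 alternatives (adjusted p = 0.0690). Entpd5, a relative of CD39 that acts in the endoplasmic reticulum, had 61.0, 65.4 and 60.5 CPM in KO, against 70.2, 72.2 and 74.8 CPM in WT (log2 fold change -0.23, adjusted p = 0.0330), a call lost in 7 of 16 alternatives with adjusted p up to 0.121. Enpp1, a surface enzyme that cleaves ATP to AMP, had 35.6 ± 1.77 CPM in KO and 34.1 ± 0.735 CPM in WT (adjusted p = 0.735). Of the 7 P2Y receptors 2 could be tested and neither passed. P2ry13 had the smaller p (log2 fold change 0.52, adjusted p = 0.709), with 3.25 CPM in KO 2, the library highest in macrophage markers, and 0.311 CPM in KO 3, the lowest. The part of macrophages in these values was not tested.

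**Figure D3:**
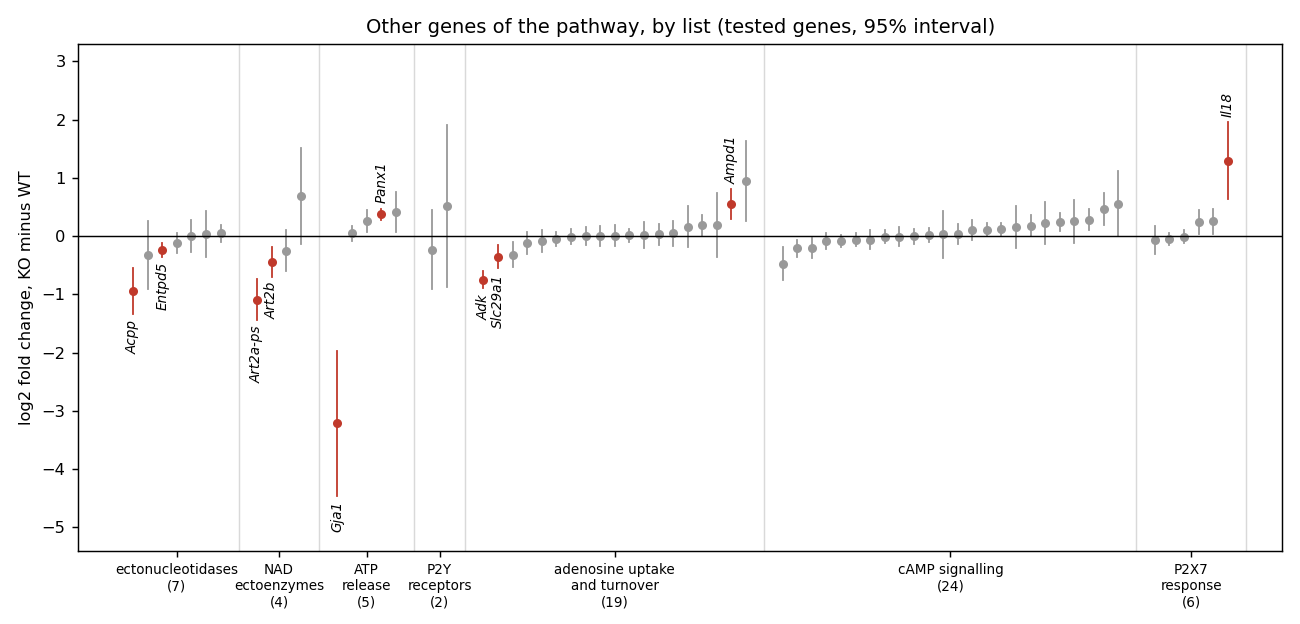
Log2 fold change, KO minus WT, with 95% intervals, of the tested genes of each list, sorted within the list, with the number tested in parentheses. Red points with names are the genes called at an adjusted p under 0.05, from Gja1 at -3.21 to Il18 at 1.30. Other P2X and adenosine receptors are missing because none passed the filter on low counts.

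Of 30 tested genes that act after the receptors, 1 was called (3.33%), beside 6.45% of all genes. Of 24 tested genes of cyclic AMP signalling, which the receptor encoded by Adora2a feeds, 0 passed in edgeR's quasi-likelihood test, while 8 had an unadjusted p under 0.05, beside 2780 of all 13602 genes. Some passed under alternatives. Pde3b, which encodes a cyclic AMP phosphodiesterase, passed in DESeq2 (adjusted p = 0.0308) and in edgeR without KO replicate 2 (adjusted p = 0.0318). Crem passed with the covariate of Y-linked CPM (adjusted p = 0.0431) and Pde4d without KO replicate 3 (adjusted p = 0.0441), and without a filter on low counts 5 genes of the list passed (Crem, Pde4b, Pde3b, Pde4d and Prkar1b). With the macrophage covariate Pde3b (adjusted p = 0.0077) and Prkar1b (adjusted p = 0.0411) passed. The smallest p was that of Prkar1b, a regulatory subunit of protein kinase A, with 8.41 ± 0.446 CPM in KO and 6.05 ± 0.553 CPM in WT (log2 fold change 0.46, adjusted p = 0.0562). Of 6 tested genes of the P2X7 response, 1 rose, Il18. Gsdmd did not pass (log2 fold change 0.26, adjusted p = 0.159). It passed in edgeR without a filter on low counts (adjusted p = 0.0102) and without KO replicate 1 (adjusted p = 0.045). Il18, which encodes a cytokine matured by caspase 1, had 3.97, 5.84 and 3.02 CPM in KO, against 2.09, 1.19 and 1.89 CPM in WT (log2 fold change 1.30, SE 0.29, adjusted p = 0.0284). Il18 is expressed by macrophages too, and KO 2 was highest in both Il18 and macrophage markers. KO 3, lowest in macrophage markers, still had more Il18 (3.02 CPM) than every WT library. With the summed macrophage markers as a covariate in edgeR, added once the data had been seen, Il18 passed (adjusted p = 0.0123). Its log2 fold change was smaller in that fit than without the covariate. The cause of the Il18 difference was not tested. Leaving out KO replicate 1, KO replicate 2 or any 1 of the WT libraries lost the call (highest adjusted p = 0.119). Adam10 and Adam17, the proteases that shed surface proteins after P2X7 opens, had log2 fold changes of -0.05 (adjusted p = 0.629) and -0.01 (adjusted p = 0.953).

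Among the 9768 genes that averaged 5 CPM or more, Angptl2 and F2r were among the 3 whose levels followed P2rx7 most closely over the 6 libraries, with Pearson's r of log2 CPM of 0.997 for Angptl2 and 0.996 for F2r. This is a description that includes the difference between genotypes. With so few libraries 132 of the 9768 genes had an r above 0.95. Angptl2, which encodes a secreted protein, fell (log2 fold change -1.52, adjusted p = 0.00521), as did the thrombin receptor gene F2r (-0.79, adjusted p = 0.00217).

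**Figure D4:**
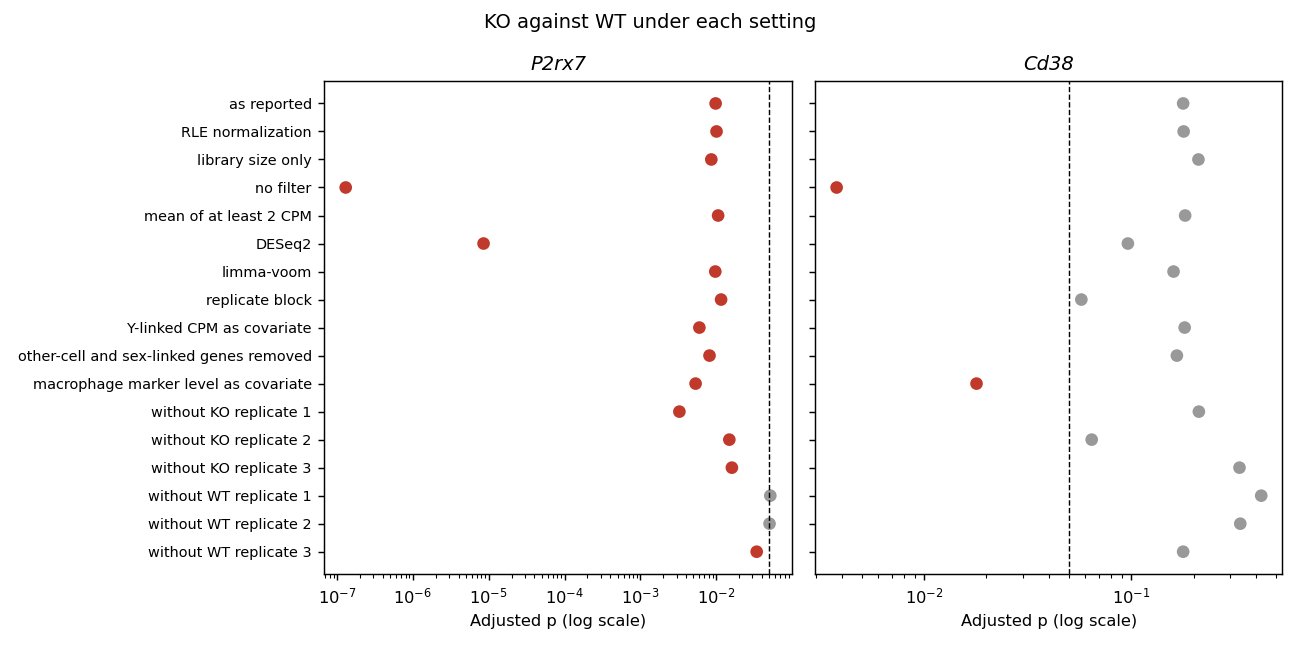
Adjusted p (log axis) of P2rx7 and Cd38 under each setting, red where it lies under 0.05 (dashed line) and grey where it does not. P2rx7 passes in 14 of 16 alternatives and Cd38 in 2 of 16.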

How the data were processed

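RNA-seq read counts of 6 libraries (KO 1 to 3 and WT 1 to 3) were analysed. The deposited table holds raw counts per Ensembl gene, whole numbers without normalization. Per the submitters' processing notes, the tools were DESeq2 1.34.0, Picard, HISAT2 2.1.0 and fastp 0.23.2, with the build mm10. The read counter, its strand setting and the handling of reads that fit several genes are not stated by the labels. Genes were kept by filterByExpr (minimum count 10, minimum total 15), scaled by TMM (factors 0.987 to 1.02) and tested for genotype with edgeR 4.0.16 (quasi-likelihood F test, R 4.3.3) and called where the Benjamini-Hochberg adjusted p was under 0.05. Each SE is the log2 fold change divided by the square root of F, and intervals use its degrees of freedom. CPM divides by the library total, so TMM affects only the fits. With 3 libraries against 3, an exact permutation test cannot go below p = 0.1. Exon lengths and overlaps came from GENCODE M21 (mm10). Within a genotype, libraries differed beyond sampling noise (chi-square per degree of freedom at least 5.03). The steps were also run on simulated counts with planted changes, drawn gene by gene without a mix of sexes or of other cells. All planted changes were larger than that of P2rx7, so that run does not bear on its call.

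Members, gene lists and marker lists were chosen with earlier results of these data known. Named genes are the members, Smarcd2, Foxp3, Il2ra, Ctla4, the called genes of each list (or its smallest p) and the 3 genes most like the member with the smallest p, 1 of which is not reported here. Others named (Lrrc8a, Calhm2, Slc17a9, Slc28a2, Xdh, Enpp1, Pde3b, Pde4b, Pde4d, Crem, Gsdmd, Adam10, Adam17, Ikzf2, Cd79b, Xbp1, Sdc1, Bst2, Zbtb46, Klrb1c, Eomes, Xist and receptors with few reads) were chosen after their values were seen. Alternatives used RLE or no scaling, other filters, DESeq2 1.42.0, limma-voom (limma 3.58.1), the replicate block, covariates, removal of other-cell and sex-linked genes and each library left out. The macrophage covariate was added after seeing the data.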

Additional observations from a re-analysis of the deposited data

How the results depend on the processing

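All 8 members kept the sign of their log2 fold change in all 16 alternatives, and no call reversed. With 1 library left out, 344 to 848 genes were called in all, 0 to 1 members, 4 to 8 genes of the wider lists and 0 to 2 downstream genes. The lowest counts came without WT replicate 1 or WT replicate 2, which gave 344 genes, 0 members, 4 wider and 0 downstream genes each; without WT replicate 3 the counts were 556, 1, 6 and 0. Without a filter on low counts, 1624 genes were called, with 2 members (P2rx7 and Cd38) and 7 downstream genes. DESeq2 called 2 downstream genes, as did the covariate for Y-linked CPM, and the macrophage covariate called 3 downstream genes and 2 members. The labels do not say whether the replicate numbers pair the libraries. Deviations of same-numbered libraries correlated at -0.166, -0.023 and 0.166. Those of differently numbered libraries ran from -0.234 to 0.246, so these values cannot settle it. With the number as a replicate block, 738 genes, 1 member, 7 wider genes and 1 downstream gene were called. The cause of these changes was not tested, and the fits with 1 library left out also hold fewer libraries. Few reads stand behind Gja1 and the receptors that could not be tested.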
